A study of Arabidopsis thaliana with 18 samples.

Results

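The leaf transcriptome of the phyA-211 line of Arabidopsis thaliana was compared between plants submerged for 6 h and plants kept in air. Every gene with at least 1 TPM (a share of a library, corrected for transcript length) in at least 3 of the 6 phyA-211 libraries was included, which left 18509 of the 32833 genes in the deposited table. The groups were phyA-211 submerged, phyA-211 air, wild type submerged, wild type air and, for the spread of replicates alone, ein3eil1 submerged and ein3eil1 air, each with 3 libraries from leaves of 4-week-old plants. All plants had been grown in air before the treatment, and the labels call the treatment mock in all 18 libraries. The line phyA-211 carries a mutation in PHYA, the gene of the phytochrome A photoreceptor, and ein3eil1 is mutated in EIN3 and EIL1, which encode transcription factors of the ethylene response. The title of the series is about PHYA and escape from submergence, and the comparison asks what leaves of a PHYA mutant line express under water. Neither the light during submergence nor the origin of replicates (single plants, pools, repeated preparations) is given in the sources used here. A p-value here measures library-to-library spread, which may be technical.

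Under water, oxygen and carbon dioxide reach a leaf slowly and the ethylene it makes is trapped. In Arabidopsis, low oxygen stabilizes ERF transcription factors of group VII, which plant cysteine oxidases otherwise mark for degradation, and these factors switch on genes of fermentation. Phytochrome A is the light-labile member of the phytochrome family, the one that responds to far-red light and to very weak light, and it is best known from seedlings.

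The submerged phyA-211 replicates were the most widely spread of the 6 groups. The SD of log2(TPM + 1) over 3 replicates, taken gene by gene over the 18509 genes, had a median of 0.37 in submerged phyA-211 and 0.27 in phyA-211 air. The same median was 0.09 in submerged wild type, 0.17 in wild type air, 0.21 in submerged ein3eil1 and 0.14 in ein3eil1 air. An SD over 1 was found for 914 genes (4.94%) in submerged phyA-211 and for 346 genes (1.87%) in phyA-211 air. The submerged phyA-211 libraries were therefore less alike than the libraries of either wild-type group.

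**Figure D1:**
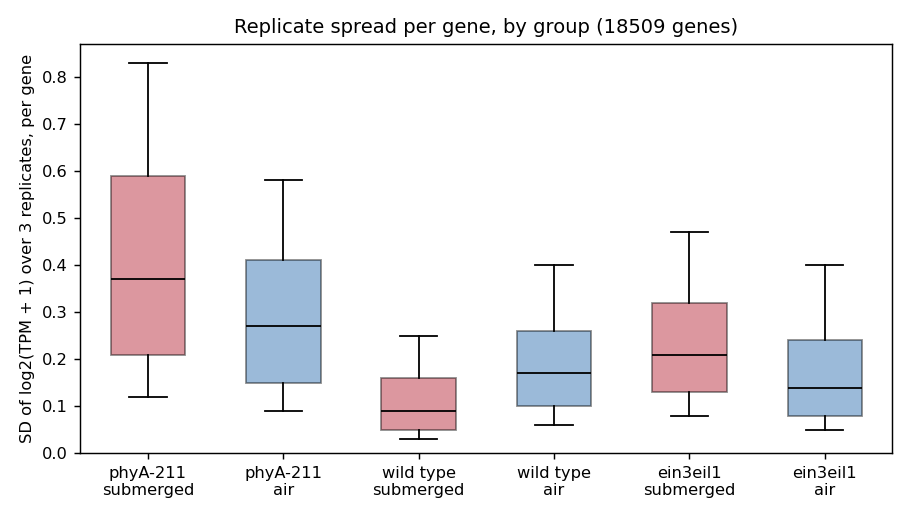
Spread of replicates in each group. The y axis gives the SD of log2(TPM + 1) over 3 replicates for each of 18509 genes; the line is the median, the box runs between quartiles and the whiskers run between the outer deciles, and the median of 0.37 in submerged phyA-211 is the highest of the 6.

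Submerged replicate 1 stood apart from the other two replicates of its group. Its log2 values correlated with those of submerged replicates 2 and 3 at r = 0.925 and 0.908 over the 18509 genes, while replicates 2 and 3 correlated with each other at r = 0.965. With the 3 submerged wild-type libraries, replicate 1 correlated at r = 0.956 to 0.96, replicate 2 at 0.908 to 0.909 and replicate 3 at 0.894 to 0.895. Replicate 1 was thus nearer to submerged wild type than to its own group, and replicates 2 and 3 were not. These correlations are across genes and describe the libraries. Of 18249 genes with 3 distinct values, replicate 1 was the lowest in 63.1% and the highest in 25.4%, replicate 2 was the middle one in 66.0%, and replicate 3 was the highest in 55.6%. The median distance of a library from the mean of the other 2 was 0.56 for replicate 1, 0.23 for replicate 2 and 0.42 for replicate 3, in log2.

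Transcript length moved with this spread. Over the 18435 genes with an annotated transcript (99.6%), the gap of submerged replicate 1 to the mean of replicates 2 and 3 correlated with log2 transcript length at Pearson's r = -0.64 and Spearman's rho = -0.68. The same gap gave r = 0.39 for replicate 2 and 0.51 for replicate 3, and lay between -0.05 and 0.03 in the submerged wild-type libraries. In air it was -0.46, 0.41 and 0.19 for phyA-211 replicates 1, 2 and 3, and 0.29, -0.16 and -0.2 for those of wild type. The 3 gaps of a group are not separate observations, since each library enters all of them. Relative to the mean of the phyA-211 air libraries, genes of up to 750 bases had a median of 0.47 in submerged replicate 1, -0.08 in replicate 2 and -0.11 in replicate 3, in log2. Genes of over 4000 bases had medians of -0.48 in replicate 1, 0.79 in replicate 2 and 1.12 in replicate 3. On the same scale the 3 submerged wild-type libraries had 0.15 to 0.16 in the shortest class and -0.69 to -0.66 in the longest, and the submerged ein3eil1 libraries had -0.28 to -0.03 and -0.11 to 0.43. In submerged wild type and in submerged phyA-211 replicate 1, short transcripts were thus relatively high and long ones low. Replicates 2 and 3 had the reverse, with longest-class medians above those of every submerged library of the other lines. In the longest class the ein3eil1 air libraries had 1.16, 0.93 and 1.08, and the wild type air libraries 0.42, 0.07 and 0.02. High longest-class medians were thus not particular to submerged phyA-211. Among the phyA-211 air libraries, replicate 1 had the direction of submerged replicate 1, with a median of 0.31 in the shortest class and -0.42 in the longest.

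**Figure D2:**
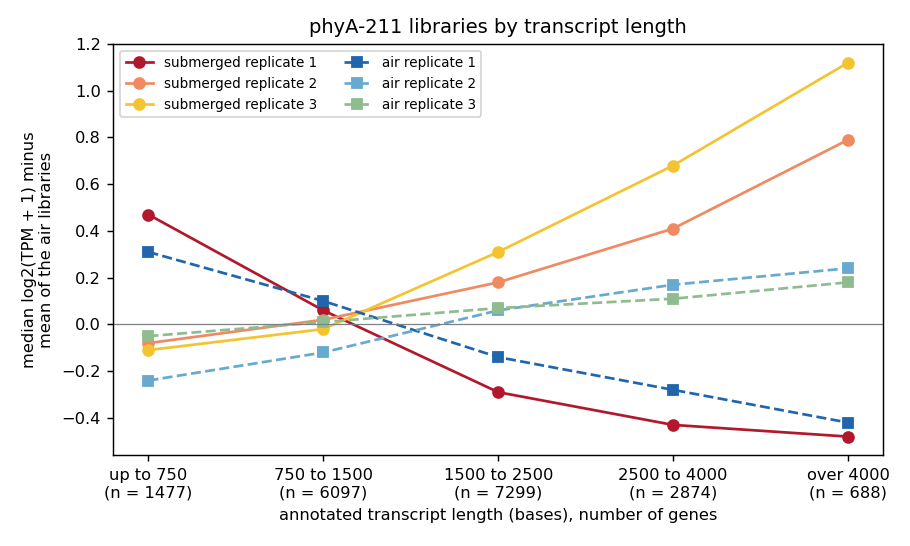
Median level of genes in 5 classes of annotated transcript length, for each phyA-211 library. The y axis gives log2(TPM + 1) minus the mean of the 3 air libraries; lines of submerged libraries are solid and those of air libraries dashed, and over 4000 bases submerged replicate 1 lies at -0.48 while replicates 2 and 3 lie at 0.79 and 1.12.

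Small nuclear RNA genes took 1.85% of the TPM total in submerged replicate 1, 0.478% in replicate 2 and 0.329% in replicate 3, against 2.04%, 0.95% and 0.731% in air replicates 1, 2 and 3. Within phyA-211, replicate 1 was the highest in both conditions. In wild type these genes took 0.0281% to 0.0553% in air and 0.51% to 0.592% submerged. The air libraries of phyA-211 were thus all above those of wild type, and submerged replicate 1 was above every submerged wild-type library. When the length trend was subtracted from each library, an alternative chosen after seeing the data, the median SD became 0.24 in submerged phyA-211 and 0.21 in phyA-211 air. Replicate 1 then correlated with replicates 2 and 3 at r = 0.952 and 0.948 and still with submerged wild type at 0.956 to 0.96. The part of RNA quality or library preparation in these differences was not tested. Counts of called genes in the gene lists below are therefore also given without submerged replicate 1.

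With limma, 3275 genes (17.7%) were called higher and 3171 (17.1%) lower in submerged than in air leaves of phyA-211, 34.8% of the genes tested, at an adjusted p under 0.05. Without submerged replicate 1 the counts were 5721 higher and 3529 lower, and with the length trend removed they were 4599 and 4490. These shares and counts over all genes are the background of the list counts below. A list near them shows nothing particular to its members. The replicates of both groups did not overlap in 8925 genes (48.2%). A fold change below is the submerged minus the air mean of log2(TPM + 1), a scale that understates low genes. Their median over all genes was 0.11, and -0.20, 0.19 and 0.26 for submerged replicates 1, 2 and 3 taken singly. In leaf tissue, fewer cells of a type and less RNA per cell cannot be told apart.

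PHYA itself was measured first, since the line carries a mutation in it. It had 7.5, 10.6 and 12.8 TPM in submerged replicates 1, 2 and 3, against 1.2, 1.2 and 1.83 TPM in air replicates 1, 2 and 3. The groups did not overlap, and PHYA rose by 2.21 in log2 (SE 0.27, limma adjusted p = 0.000754). Its transcript of 4595 bases is in the longest class, and the rise was 1.79 with the length trend removed (limma adjusted p = 0.00136). Wild type had 22.9 ± 0.886 TPM submerged and 11.7 ± 1.32 TPM in air (SD, n = 3 each). The rise in phyA-211 exceeded that in wild type by 1.29 in log2 (limma adjusted p = 0.0204, between 0.000348 and 0.928 over the alternatives). PHYA was thus lower in phyA-211 than in wild type under each condition, without overlap, and was still detected in all 6 phyA-211 libraries. A transcript level does not show whether a working photoreceptor was made.

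**Figure D3:**
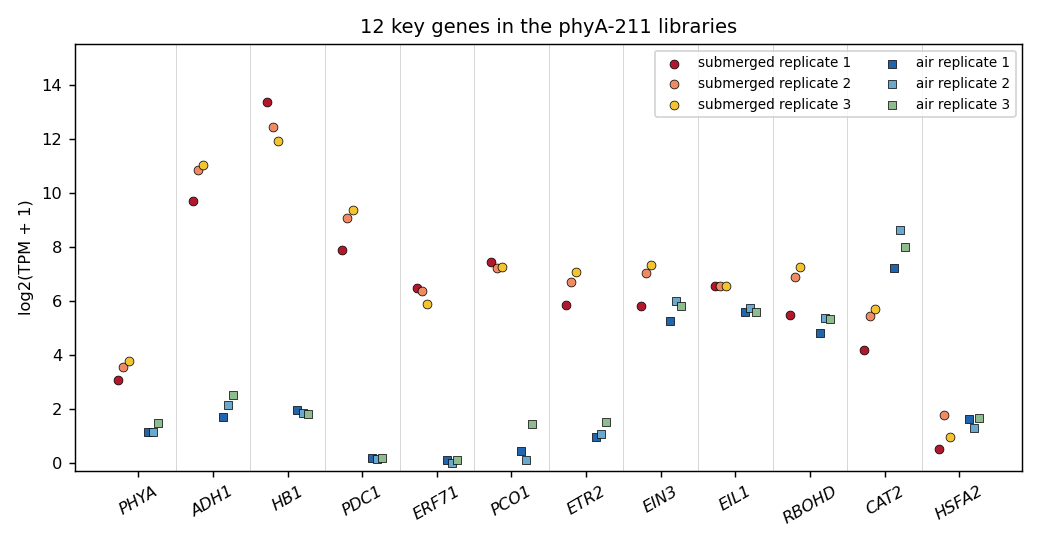
Log2(TPM + 1) of 12 key genes in each phyA-211 library, with submerged libraries as circles left of air libraries as squares. PHYA, ADH1, HB1, PDC1, ERF71, PCO1 and ETR2 lie above air in all 3 submerged libraries and CAT2 lies below it, EIL1 has nearly equal submerged values, and submerged replicate 1 lies within the air range for EIN3.

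Of the 14 genes of fermentation and sucrose breakdown tested of 16 listed, 7 rose in submerged phyA-211 and 0 fell. ADH1, which encodes alcohol dehydrogenase, had 826, 1848 and 2058 TPM in submerged replicates 1, 2 and 3, against 2.23, 3.43 and 4.72 TPM in air. Its fold change was 8.40 (SE 0.39, limma adjusted p = 1.58e-05). PDC1 (AT4G33070), which encodes a pyruvate decarboxylase, had 236, 541 and 651 TPM submerged, against 0.15, 0.1 and 0.13 TPM in air (fold change 8.60). Both genes were high in every submerged library, and lowest in replicate 1. SUS1, which encodes a sucrose synthase, had 182, 483 and 634 TPM submerged, against 5.71, 9.19 and 7.83 TPM in air (5.50), although reads could be shared with its close relative SUS4. AT4G17260, with the smallest called change of the list, rose by 1.55. The counts were 10 and 0 without submerged replicate 1, and 8 and 3 with the length trend removed, while 1 fell with the replicate block. Those not called included the pyruvate decarboxylase gene PDC2 (limma adjusted p = 0.0913). The list's median was 0.50 in submerged replicate 1, 1.89 in replicate 2 and 2.02 in replicate 3.

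Of the genes of oxygen sensing, those with the largest changes were near each other in the 3 submerged libraries. PCO1 (AT5G15120) and PCO2 (AT5G39890), which encode plant cysteine oxidases, had 170, 148 and 151 TPM and 161, 140 and 137 TPM submerged, against 0.36, 0.09 and 1.69 TPM and 0.17, 0.3 and 0.53 TPM in air. They rose by 6.63 and 6.79, and PCO5 (AT3G58670) rose by 1.5. ERF71, also named HRE2, a group VII factor, had 87.7, 81.0 and 58.3 TPM submerged, against 0.07, 0 and 0.09 TPM in air (fold change 6.17, SE 0.25, limma adjusted p = 9.24e-06). In all, 7 of 15 genes rose and 0 fell, and 11 and 0 without submerged replicate 1.

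All 27 tested members of the remaining core hypoxia list of 28 rose, with no overlap between groups, and all 27 also rose without submerged replicate 1 and with the length trend removed. The list median was 6.49, and 6.35, 6.95 and 6.84 in submerged replicates 1, 2 and 3, while 3 members were listed at 0 in every air library. HB1, which encodes a haemoglobin that scavenges nitric oxide, had 10518, 5517 and 3862 TPM submerged, against 2.86, 2.58 and 2.5 TPM in air (fold change 10.70, SE 0.36, limma adjusted p = 5.44e-06). It was highest in submerged replicate 1, the reverse of ADH1. AT4G27450 had 4604, 6337 and 6477 TPM submerged, against 5.93, 3.5 and 5.2 TPM in air (9.96), and AT2G17850 had 1407, 979 and 838 TPM submerged, against 0, 0 and 0.38 TPM in air (9.88). The smallest change was that of PP2-A11, at 1.86.

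Glycolysis did not move one way. Of 20 genes, 6 rose and 5 fell, with a median of -0.31, and 7 rose and 4 fell without submerged replicate 1. PFK6, which encodes a phosphofructokinase, had 44.6, 62.0 and 69.8 TPM submerged, against 1.86, 3.97 and 4.61 TPM in air (fold change 3.77, limma adjusted p = 0.000152). The aldolase gene FBA6 rose by 1.87, and the hexokinase gene HXK1 fell by 1.63 in log2 (limma adjusted p = 0.0215, between 0.000605 and 0.0785 over the alternatives). The other hexokinase gene, HXK2, rose by 0.81 (limma adjusted p = 0.038, between 0.00286 and 0.143 over the alternatives).

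Of 12 genes of ethylene synthesis, 7 rose and 1 fell, and 9 and 1 without submerged replicate 1. ACO1, which encodes an ACC oxidase of the last step, had 74.6, 51.6 and 55.6 TPM submerged, against 0.72, 0.93 and 1.01 TPM in air (fold change 5.01, limma adjusted p = 1.61e-05). The ACC synthase genes ACS7 and ACS8 rose by 3.34 and 2.41. SAM1, which encodes an S-adenosylmethionine synthetase, rose by 1.06 (limma adjusted p = 0.0335, between 0.000803 and 0.121 over the alternatives). The gene that fell, EFE, encodes another ACC oxidase and was chosen after its values were seen. It had 209, 228 and 243 TPM submerged, against 652, 581 and 553 TPM in air (-1.39, limma adjusted p = 0.00161).

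In the list of ethylene receptors and signalling, more genes were called once submerged replicate 1 was left out. ETR2, a receptor gene, had 56.9, 103 and 135 TPM in submerged replicates 1, 2 and 3, against 0.96, 1.13 and 1.85 TPM in air (fold change 5.36, SE 0.35, limma adjusted p = 5.26e-05). EBF2, which encodes an F-box protein that removes EIN3, rose by 3.58, and CTR1, which encodes the kinase that holds the pathway off, rose by 3.11. In the list, 7 of 15 genes rose and 0 fell, and 14 rose and 0 fell without submerged replicate 1. The list median was 0.32 in submerged replicate 1, 1.18 in replicate 2 and 1.57 in replicate 3, and the median SD of its members over the submerged libraries was 0.73, against 0.37 over all genes. Its transcripts were also long, with a median of 2929 bases.

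The 2 transcription factor genes at the end of the pathway differed in spread. EIL1 had 91.6, 92.8 and 93.4 TPM submerged, against 47.7, 51.8 and 47.3 TPM in air, and rose by 0.91 (SE 0.18, limma adjusted p = 0.00643). EIN3 had 55.8, 130 and 160 TPM submerged, against 37.6, 63.5 and 55.8 TPM in air. Submerged replicate 1 lay within the air range, and the difference of 1.03 (SE 0.41) did not pass (limma adjusted p = 0.0896, between 0.00258 and 0.245 over the alternatives). Without that replicate it was 1.48 and passed (adjusted p = 0.0038), and it also passed with the replicate number as a block (adjusted p = 0.00651). Among genes that ethylene induces, 7 of 15 rose and 0 fell, and 7 rose and 3 fell without submerged replicate 1. The growth genes ARL and ARGOS rose by 5.43 and 4.86, and RAV2 had 223, 292 and 273 TPM submerged, against 37.3, 35.1 and 22.9 TPM in air (3.03).

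Genes around phytochrome A changed in part. FHL, which encodes a protein that carries phytochrome A into the nucleus, had 21.3, 30.5 and 30.6 TPM submerged, against 2.82, 2.67 and 3.49 TPM in air (fold change 2.82, limma adjusted p = 0.000169). PKS4, of a family of phytochrome substrates, rose by 2.99, and PKS2 rose by 0.84 (limma adjusted p = 0.0273, between 0.000356 and 0.105 over the alternatives). Of 15 genes of this list, PHYA included, 6 rose and 1 fell, and 8 and 1 without submerged replicate 1. Downstream, 3 of 24 genes of the PIF, COP1-SPA and HY5 list rose and 9 fell, and 5 and 9 without submerged replicate 1. ELIP1, an early light-induced gene, had 2.44, 2.17 and 2 TPM submerged, against 58.8, 36.8 and 64.5 TPM in air (-4.05, limma adjusted p = 5.97e-05). BBX31 fell by 2.96 in log2, HYH, a relative of HY5, fell by 0.73 (limma adjusted p = 0.0357, between 0.00179 and 0.147 over the alternatives), and RUP1, which encodes a repressor of the UV-B receptor, rose by 2.75.

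Growth hormone genes were mixed. In the shade avoidance and auxin synthesis list, 6 of 15 genes rose and 5 fell, and 7 and 6 without submerged replicate 1. YUC5, which encodes an enzyme of auxin synthesis, had 8.29, 13.8 and 10.9 TPM submerged, against 0.13, 0.15 and 0.2 TPM in air (fold change 3.34, limma adjusted p = 8.89e-05). BEE1 rose by 4.43 and PAR1 by 2.82, both of which encode helix-loop-helix proteins. The homeobox gene HAT3 fell by 0.98 in log2 (limma adjusted p = 0.0221, between 0.000293 and 0.0978 over the alternatives). Auxin response genes rose in 5 of 19 cases with 0 lower, while 34.8% of all genes were called. Without submerged replicate 1, 7 rose and 2 fell, and 10 rose with the replicate block. IAA2 had 541, 490 and 477 TPM submerged, against 106, 105 and 102 TPM in air (2.26), and the small auxin-up RNA gene SAUR9 rose by 2.83. Values of SAUR19 to SAUR24, which are close copies, are uncertain.

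In the gibberellin list 7 of 17 genes rose and 3 fell, and 9 and 3 without submerged replicate 1. GASA4, a gibberellin-regulated gene, had 873, 513 and 463 TPM submerged, against 42.6, 52.7 and 92.2 TPM in air (fold change 3.3, limma adjusted p = 0.000471), and GASA6 rose by 4.08. Both were highest in submerged replicate 1. GA2OX6, which encodes an enzyme that inactivates gibberellin, rose by 2.63. The receptor gene GID1C rose by 0.92 (limma adjusted p = 0.0373, between 0.00047 and 0.143 over the alternatives). For abscisic acid, 6 of 22 genes rose and 14 fell, and 7 and 13 without submerged replicate 1. The receptor genes PYL6 and PYL5 rose by 5.37 and 4.41, while the response gene RAB18 had 0.55, 1.07 and 0.37 TPM submerged, against 30.9, 27.1 and 27.2 TPM in air (-4.16, limma adjusted p = 4.16e-05). ABA2, of abscisic acid synthesis, fell by 0.68 (limma adjusted p = 0.0468, between 0.000565 and 0.19 over the alternatives).

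Cell wall and water channel genes split within their families. Of 14 xyloglucan endotransglucosylase genes, 7 rose and 3 fell. TCH4 had 122, 222 and 210 TPM submerged, against 1.47, 1.72 and 2.71 TPM in air (fold change 5.94, limma adjusted p = 2.02e-05), and XTH18 rose by 3.63, while XTH31 fell by 3.41 in log2. Of 13 expansin genes 3 rose and 7 fell. EXPA1 had 1399, 1056 and 964 TPM submerged, against 93.0, 299 and 137 TPM in air (2.84, limma adjusted p = 0.00176), and EXPB3 and EXPA5 fell by 2.77 and 2.61 in log2. The expansin list had medians of -0.73 in submerged replicate 1, -1.19 in replicate 2 and -1.69 in replicate 3, so here replicate 1 was the highest. Of 21 aquaporin genes 3 rose and 10 fell. NIP2;1 had 18, 34.3 and 37.2 TPM submerged, against 0.47, 0.51 and 0.17 TPM in air (4.42), and PIP1;4 had 11.3, 14.2 and 14.0 TPM submerged, against 78.5, 114 and 154 TPM in air (-2.99). Without submerged replicate 1 the 3 lists had 8 and 3, 2 and 7, and 4 and 10 genes higher and lower, in that order.

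Genes of the photosynthetic apparatus fell almost throughout. Of 28 antenna, photosystem and Rubisco genes, 0 rose and 26 fell, 25 without submerged replicate 1, and no gene of the list overlapped between groups. The list median was -2.40, -2.0 and -2.03 in submerged replicates 1, 2 and 3. LHCB2.3, which encodes an antenna protein of photosystem II, had 9.12, 7.72 and 9.24 TPM submerged, against 721, 1776 and 1410 TPM in air (fold change -6.98, SE 0.34, limma adjusted p = 1.68e-05). LHCB2.2 and LHCB2.1 fell by 4.95 and 4.87 in log2, and these close copies could share reads. CAB1, the smallest called change at -0.89, still had 8576, 10160 and 8437 TPM submerged, against 12718, 20936 and 17480.5 TPM in air (limma adjusted p = 0.0432, between 0.00919 and 0.144 over the alternatives). In this list the air libraries were the more spread ones, with a median SD of 0.19 submerged and 0.53 in air.

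Chlorophyll genes followed in part, with 1 of 21 higher and 9 lower, and the same counts without submerged replicate 1. POR C, which encodes a light-dependent protochlorophyllide reductase, had 4.46, 7.35 and 11.9 TPM submerged, against 66.6, 164 and 128 TPM in air (fold change -3.75, limma adjusted p = 0.000519). GUN4, of chlorophyll synthesis, fell by 2.86 in log2 and ACD2, of chlorophyll breakdown, fell by 2.80. Of 24 flavonoid and anthocyanin genes 21 fell and 1 rose, also without submerged replicate 1. PAP1, the MYB factor that switches on anthocyanin synthesis, had 0, 0.09 and 0 TPM submerged, against 161, 80.5 and 116 TPM in air (-6.81, SE 0.29, limma adjusted p = 1.19e-05). GSTF12, of anthocyanin transport, had 0.1, 0.21 and 0 TPM submerged, against 226, 132 and 230 TPM in air (-7.44), and LDOX, which encodes an enzyme of anthocyanin synthesis, fell by 6.07. The list median hardly differed between submerged replicates, at -3.05, -2.96 and -3.18.

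Of 23 glucosinolate genes, 3 rose and 11 fell, 8 rose and 11 fell without submerged replicate 1, and 5 rose with the replicate block. The 3 largest falls were of CYP79F1, MYB29 and BCAT4, which act in the branch from methionine. CYP79F1 had 1.28, 4.62 and 4.53 TPM submerged, against 68.9, 114 and 91.8 TPM in air (fold change -4.46, limma adjusted p = 0.000177), MYB29 fell by 4.21 and BCAT4 by 4.17 in log2. Among the 3 that rose, chosen after their values were seen, MYB51 and CYP79B3 belong to the branch from tryptophan, and the third was the sulfotransferase gene SOT16. MYB51 had 251, 385 and 429 TPM submerged, against 38.7, 15.7 and 16.8 TPM in air (3.93, limma adjusted p = 0.000258).

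Of 22 genes of dark and sugar starvation, 14 rose and 4 fell, and 15 and 4 without submerged replicate 1. DIN10, a dark-inducible gene, had 716, 1584 and 1876 TPM submerged, against 0.57, 2.92 and 1.77 TPM in air (fold change 8.97, SE 0.45, limma adjusted p = 2.01e-05). SEN1 had 1096, 1901 and 2041 TPM submerged, against 11.4, 7.4 and 6.96 TPM in air (7.43), and AT3G15450 rose by 7.05. KIN10, which encodes a catalytic subunit of the SnRK1 energy sensor, fell by 0.76 in log2 (limma adjusted p = 0.0195, between 6.68e-05 and 0.0974 over the alternatives). Of 28 clock genes 10 rose and 8 fell, and 11 and 8 without submerged replicate 1. CDF1 had 1.49, 1.37 and 1.59 TPM submerged, against 50.2, 58.5 and 52.1 TPM in air (-4.46, limma adjusted p = 1.61e-05), and the morning genes PRR9 and LNK1 (AT5G64170) fell by 3.98 and 3.49. Genes of this list depend on the time of day, and the hours of sampling are not given in the sources used here.

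Amino acid breakdown rose in 9 of 19 genes and fell in 2, with 12 and 2 without submerged replicate 1, and 1 fell with the replicate block. ERD5, which encodes a proline dehydrogenase, had 78.3, 227 and 289 TPM submerged, against 4.86, 3.83 and 9.81 TPM in air (fold change 4.69, limma adjusted p = 0.000483), and IVD, of leucine breakdown, rose by 2.61. Both had their lowest submerged value in replicate 1. TAT3, a tyrosine aminotransferase gene that jasmonate induces, had 4.05, 11 and 11.9 TPM submerged, against 123, 21.7 and 94.7 TPM in air (-2.81, limma adjusted p = 0.0136, between 0.00208 and 0.087 over the alternatives, the highest with the replicate block). Of 22 autophagy genes 3 rose and 0 fell, while 17.7% of all genes rose and 17.1% fell. The counts were 11 and 0 without submerged replicate 1, where 5721 genes rose in all, and 6 and 1 with the replicate block. ATG8E had 304, 299 and 341 TPM submerged, against 72.2, 43.7 and 50.0 TPM in air (2.52), while APG5 and ATG8B rose by 1.26 and 0.80, the second with limma adjusted p = 0.0488, between 0.00195 and 0.162 over the alternatives.

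Stress pathways did not share a direction. In the oxidative stress list 3 of 21 genes rose and 7 fell, 5 and 7 without submerged replicate 1, and 5 rose with the replicate block. The zinc finger gene RHL41 had 231, 238 and 187 TPM submerged, against 9.84, 4.45 and 8.07 TPM in air (fold change 4.75, limma adjusted p = 4.37e-05), and STZ, a related gene, rose by 3.52. AOX1A, which encodes the alternative oxidase of mitochondria, had 2.5, 1.85 and 2.74 TPM submerged, against 47.7, 64.3 and 60.2 TPM in air (-4.12). RBOHD, which encodes an NADPH oxidase of the plasma membrane, had 43.5, 117 and 152 TPM submerged, against 27.0, 40.6 and 38.8 TPM in air. Its fold change of 1.37 just passed (SE 0.45, limma adjusted p = 0.0481, between 0.000605 and 0.15 over the alternatives), with replicate 1 only slightly above the air libraries, and was 1.90 without that replicate. CAT2, a catalase gene, had 17.0, 42.4 and 50.5 TPM submerged, against 149, 395 and 254 TPM in air (-2.85, limma adjusted p = 0.00327).

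Of 17 heat shock genes, 2 rose and 3 fell, and 3 and 3 without submerged replicate 1, while 34.8% of all genes were called. HSFA2, a heat shock factor gene, had 0.44, 2.45 and 0.96 TPM submerged, against 2.1, 1.44 and 2.21 TPM in air, with overlapping groups and a difference of -0.44 that did not pass (limma adjusted p = 0.357, between 0.0923 and 0.698 over the alternatives). HSFA7A rose by 3.00 and HSFA3 by 1.89, whereas MBF1C fell by 2.78 in log2 and ROF2 (AT5G48570) by 2.81. In the defence list 7 of 21 genes rose and 3 fell, and 12 and 3 without submerged replicate 1. WRKY22 had 58.2, 108 and 97.0 TPM submerged, against 4.01, 2.6 and 3.33 TPM in air (fold change 4.33, limma adjusted p = 6e-05), WRKY40 rose by 2.94, and FRK1, a receptor kinase gene of flagellin responses, had 11.2, 34.7 and 44.9 TPM submerged, against 5.68, 1.57 and 1.71 TPM in air (2.91, limma adjusted p = 0.00636, and 0.053 with the replicate block).

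Of 22 jasmonate genes 4 rose and 9 fell, and 6 and 9 without submerged replicate 1. LOX2, a lipoxygenase gene of jasmonate synthesis, had 24.6, 53.5 and 72.0 TPM submerged, against 607, 966 and 1141 TPM in air (fold change -4.23, limma adjusted p = 0.000302), and AOC2 fell by 3.44 in log2. CYP94C1, which encodes an enzyme that breaks jasmonate down, had 34.3, 77.1 and 85.5 TPM submerged, against 2.62, 1.05 and 2.69 TPM in air (4.36). JAZ3, a repressor gene, rose by 1.02 (limma adjusted p = 0.0428, between 0.000853 and 0.15 over the alternatives). JAR1 is counted both here and among the phytochrome genes.

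**Figure D4:**
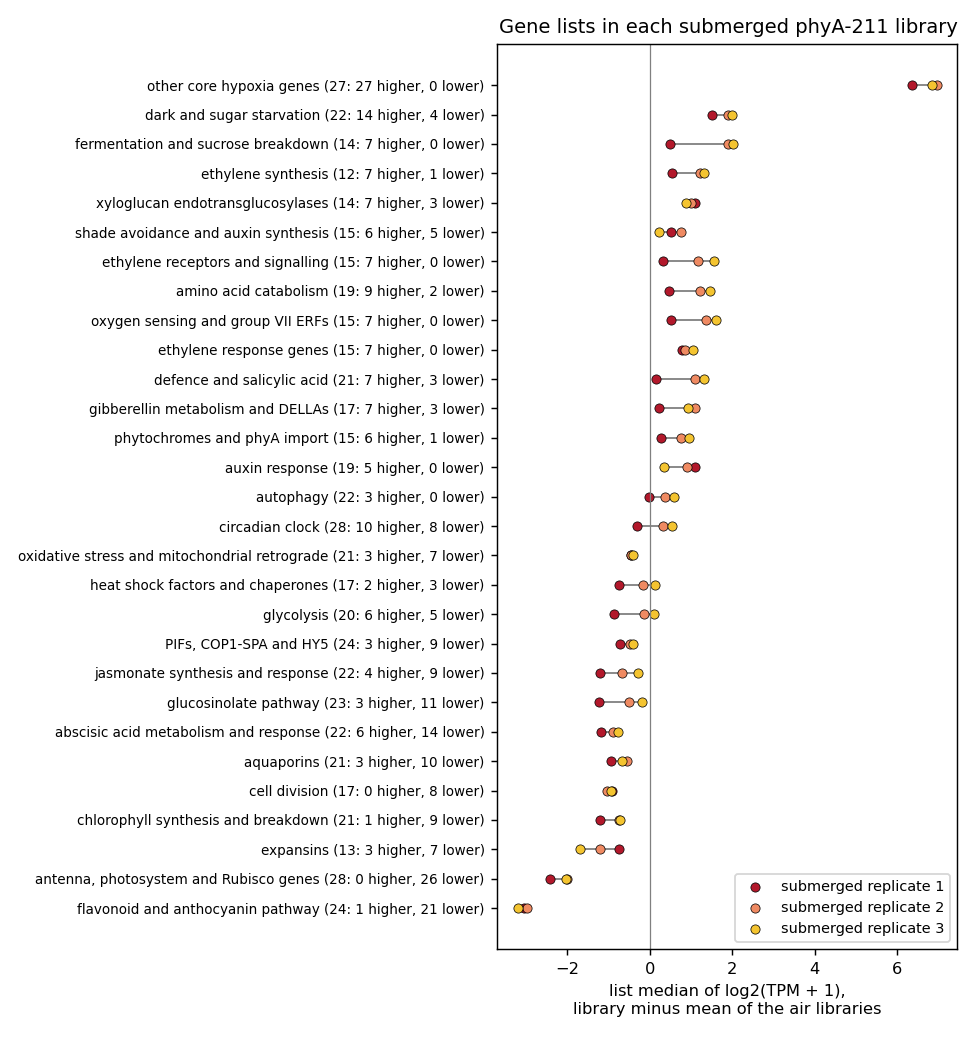
Median level of each gene list in each submerged phyA-211 library. The x axis gives log2(TPM + 1) minus the mean of the 3 air libraries, a row stands for a list with the number of genes tested and called, and a grey line joins the 3 replicates; core hypoxia genes lie above 6 in all 3, and the ethylene receptor list runs over 0.32, 1.18 and 1.57.

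With the length trend removed, other list counts moved by over 1.5 times. Glycolysis then had 8 lower, ethylene receptors and signalling 11 higher, phytochromes and their import 3 lower, the PIF, COP1-SPA and HY5 list 5 higher, glucosinolates 5 higher, autophagy 6 higher and 2 lower, heat shock 5 lower, ethylene response 1 lower and cell division 1 higher.

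Rises were ranked among nuclear genes that code for protein, carry a symbol in the deposited table and average at least 5 TPM, and the 10 largest included 6 not yet described. Genes listed there by locus only, such as PDC1, PCO1 and PCO2, were not ranked. FTM1, also named SAD6 and counted in the core hypoxia list, encodes a stearoyl-ACP desaturase and had 1052, 1739 and 1927 TPM submerged, against 0.07, 0 and 4.09 TPM in air (fold change 9.76, limma adjusted p = 4.67e-05). ORS1, an organ size gene, rose by 8.40, and BT2, which encodes a BTB and TAZ domain protein, had 174, 203 and 218 TPM submerged, against 0.08, 0.18 and 0.11 TPM in air (7.47). AZI1, a lipid transfer protein gene of systemic immunity, rose by 6.88. LBD41, a core hypoxia gene, had 781, 950 and 895 TPM submerged, against 1.34, 1.11 and 3.73 TPM in air (8.26), and BGAL4, of the starvation list, rose by 6.48. Of the 10 largest falls most were flavonoid genes, among them CHIL, UF3GT and DFR at -5.92, -5.60 and -5.30. The others were LHCB2.3, SQP1, which encodes a squalene epoxidase (-5.59), the lipase gene LTL1 (-5.32) and the B-box gene BBX30, which had 0.11, 0 and 0 TPM submerged, against 55.1, 27.3 and 32.6 TPM in air (-5.18).

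Mesophyll markers were abundant and root markers scarce in all 6 libraries, which are labelled leaves. Mesophyll markers summed to 2036, 2695 and 2798 TPM submerged, against 3200, 7840 and 6128 TPM in air, and 6 of 8 fell (4 without submerged replicate 1). Root markers summed to 1.98 to 4.21 TPM submerged, against 0.52 to 0.66 TPM in air, 4 of 10 were at 0 in all 6 libraries, and the 1 tested, the nitrate transporter gene NRT2:1, rose by 1.69. Vascular markers summed to 215, 354 and 410 TPM submerged, against 152, 235 and 220 TPM in air. Of 13 tested, 1 was higher and 1 lower, while 34.8% of all genes were called. The counts were the same without submerged replicate 1, and 2 were lower with the replicate block, with the length trend removed or after centring. Guard cell markers summed to 192 to 228 TPM submerged, against 204 to 274 TPM in air, with 1 of 10 higher and 2 lower, also without submerged replicate 1. Epidermal and cuticle markers summed to 909, 783 and 641 TPM submerged, against 2951, 2637 and 3216 TPM in air, with 0 of 13 higher and 5 lower, 4 lower without submerged replicate 1, 9 with the length trend removed and 8 after centring.

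Air replicate 3 carried flower transcripts. AP1, AP3 and SEP3 (AT1G24260), which specify floral organs, had 7.3, 7.92 and 9.31 TPM there and at most 0.36 TPM in air replicates 1 and 2, and they lay between 0 and 0.83 TPM in the 3 submerged libraries. The cuticle gene CER1 had 0.08, 0.13 and 0.02 TPM submerged, against 1.44, 2.44 and 29.9 TPM in air, and its difference did not pass (limma adjusted p = 0.0506). PI, another floral gene, was also present in the submerged libraries, with 5.71, 10.7 and 12.6 TPM submerged, against 0.21, 0.19 and 9.04 TPM in air. Of 17 cell division genes 0 rose and 8 fell, 1 rose and 7 fell without submerged replicate 1, 4 fell without air replicate 3, and 1 rose with the replicate block. SYP111, a cytokinesis gene, had 0.97, 1.42 and 0.74 TPM submerged, against 3.92, 3.47 and 11.7 TPM in air (fold change -1.69, limma adjusted p = 0.0165), and CYCD3;3 fell by 1.55 in log2. Without air replicate 3, mesophyll markers fell in 1 case and epidermal markers in 6. Other lists also changed: glycolysis then had 3 higher and 2 lower, amino acid breakdown 7 and 0, the PIF, COP1-SPA and HY5 list 2 and 4, abscisic acid 6 and 9, aquaporins 2 and 6, gibberellin 5 and 1, ethylene synthesis 4 and 1, and jasmonate 3 and 6. Over all genes, 2060 were then higher and 2096 lower, and without air replicate 2 or submerged replicate 2 the higher genes also fell to 2148 and 1980, and each such comparison has fewer libraries. The part of floral tissue in these differences was not tested.

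Of the 10 genes with the widest spread among submerged replicates, 6 were low in replicate 1, and 3 of these had transcripts of over 4000 bases. Among named nuclear genes of at least 20 TPM in submerged phyA-211, SYD, which encodes a chromatin remodelling ATPase and has a transcript of 11033 bases, had 4.36, 26.1 and 36.6 TPM, KAK, of 6955 bases, had 4.22, 23.1 and 33.1 TPM, and TIC, of 5757 bases, had 8.48, 43.9 and 59.9 TPM. Their SDs were 1.5, 1.44 and 1.44 in log2, and none of them passed against air (limma adjusted p = 0.262, 0.399 and 0.698), although SYD did with the replicate block (0.0183) and all 3 did without submerged replicate 1 (0.00618, 0.00748 and 0.0333). BXL1, which encodes a xylosidase, had 28.9, 168 and 210.5 TPM submerged, against 3.12, 3.73 and 2.17 TPM in air, and still rose by 4.69 (SE 0.68, limma adjusted p = 0.00163). ATMRK1, with 4.19, 32.9 and 35.3 TPM submerged, and LHB1B1, an antenna gene with near-identical copies and 43.3, 279 and 320 TPM submerged, also had their low value in replicate 1. LHB1B1 did not pass against air (limma adjusted p = 0.0529, between 0.00269 and 0.156 over the alternatives). The alternatives under which LHB1B1 passed included the replicate block (0.0103) and the fit without submerged replicate 1 (0.029). ATMRK1 did not pass (limma adjusted p = 0.691, between 0.00344 and 0.981 over the alternatives), and its lowest value was without submerged replicate 1.

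A few widely spread genes ran the other way. MT1A, a metallothionein gene with a transcript of 138 bases, had 1695, 0 and 462 TPM in submerged replicates 1, 2 and 3, against 1634, 786 and 1225 TPM in air, and had the widest SD of the genes ranked, 5.73. Its SD was wider still in wild type air, at 6.23, with 0, 2324 and 1296 TPM, so this spread was not particular to submerged phyA-211. AT7SL-1, named for the RNA of the signal recognition particle but kept by the filter for protein-coding genes, had 132, 12.6 and 39.4 TPM submerged, against 76.5, 57.1 and 37.7 TPM in air. The defensin gene PDF1.2b had 348, 127 and 45.5 TPM submerged, against 461, 290 and 331 TPM in air. AT1G59359 was high in replicate 3 alone among the submerged libraries, with 17.0, 20.6 and 133 TPM submerged, against 112, 130 and 134 TPM in air. None of these 4 passed against air in the main fit, and MT1A and AT7SL-1 passed under none of the 18 alternatives. PDF1.2b passed, among others, without submerged replicate 1 (-2.20, limma adjusted p = 0.00606) and with the length trend removed (0.0356). Its limma adjusted p lay between 0.00482 and 0.274 over the alternatives. For AT1G59359 the limma adjusted p lay between 0.000523 and 0.248 over the alternatives. Values of closely related genes such as the defensins are uncertain.

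The 10 called genes of narrowest spread, chosen for like values in the 3 submerged libraries, had transcripts of 840 to 2363 bases. CIPK12, a kinase gene, had 127, 128 and 127 TPM submerged, against 44.7, 43.1 and 40.6 TPM in air (fold change 1.55, limma adjusted p = 0.000579). NAP1;1 had 79.6, 79.2 and 80.1 TPM submerged, against 30.7, 34.6 and 35.2 TPM in air (1.23), and CAM3, a calmodulin gene, had 153, 153 and 152 TPM submerged, against 347, 308 and 292 TPM in air (-1.04). COR27, a cold-regulated clock gene, rose by 4.17 with submerged values of 61.5, 62.6 and 62.7 TPM. The others were RAP2.1, BCDH BETA1, MMZ2, EIL1, SNF7.1 and RRP41, with SDs of 0.01 to 0.02.

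To see where the response of phyA-211 differed from that of wild type, the difference of both responses was tested over 19265 genes in 12 libraries. With limma, 1452 genes (7.54%) had a more positive response in phyA-211 and 439 (2.28%) a more negative one, together 9.82% of those tested, and with the replicate block the counts were 5246 and 1160. This split depended on scaling: median centring gave 596 positive and 1066 negative, quantile normalization 735 and 790, and removal of the length trend 1100 and 845. The median difference over all genes was 0.37, -0.16 after centring and 0.03 after quantile normalization. It was -0.36 in transcripts of up to 750 bases and 1.4 in those of over 4000. Without submerged replicate 1 the counts were 8096 and 1920.

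Of 27 core hypoxia genes, 18 had a more positive response in phyA-211 and 0 a more negative one, with 14 and 0 after centring, 19 and 0 with the length trend removed, 20 and 0 with the block, and 22 and 0 without submerged replicate 1. LBD41 had 781, 950 and 895 TPM in submerged and 1.34, 1.11 and 3.73 TPM in air phyA-211, while wild type had 74.0 ± 6.08 TPM submerged and 3.24 ± 2.63 TPM in air (SD, n = 3 each). The difference of response was 3.93 (SE 0.56, limma adjusted p = 0.00348), and submerged phyA-211 did not overlap with submerged wild type. PDC1 differed by 2.97 (limma adjusted p = 0.00335), whereas ADH1 differed by 1.34, which did not pass (limma adjusted p = 0.0734, between 0.00137 and 0.17 over the alternatives, and 0.0117 with the replicate block). HB1 did not pass either, at 0.56 (limma adjusted p = 0.304, between 0.123 and 0.974 over the alternatives).

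Differences of response were called in at least 5 genes in 14 lists, core hypoxia included, a minimum chosen after the counts were seen. Of 14 fermentation genes 7 had a more positive response in phyA-211 and 0 a more negative one, with 4 positive after centring, 5 with the length trend removed, 10 with the replicate block and 12 without submerged replicate 1. For 20 glycolysis genes the positive count was 6, and 1, 4, 16 and 17 under the same alternatives in that order, with 0 negative. For 12 genes of ethylene synthesis it was 6, and 1, 2, 9 and 9, with 0 negative. The counts of glycolysis and ethylene synthesis thus fell to 1 gene each after centring.

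Glucosinolate genes gave 9 positive of 23, and 5, 7, 15 and 16 under those alternatives. Defence genes gave 9 of 21, and 4, 7, 12 and 16, and jasmonate genes 6 of 22, and 4, 5, 12 and 14, with 0 negative in each of these lists. Starvation genes gave 7 of 24 positive and 0 negative, 5 and 3 after centring, 6 and 5 with the length trend removed, 11 and 0 with the block and 13 and 0 without submerged replicate 1.

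Antenna, photosystem and Rubisco genes had 0 positive and 6 of 28 negative. Under the alternatives in the same order they had 11, 4, 8 and 7 negative and 0, 0, 1 and 1 positive. Flavonoid genes had 1 positive and 4 of 24 negative, and then 11, 10, 10 and 10 negative and 1, 1, 2 and 4 positive. Auxin response genes had 2 positive and 4 negative of 20, oxidative stress genes 4 and 1 of 21, heat shock genes 1 and 5 of 21, and abscisic acid genes 5 and 2 of 22. The more frequent sign was the same in all 14 lists with the length trend removed and with the replicate block. It was the same in 13 after centring, where abscisic acid genes had 2 positive and 3 negative, and in 13 without submerged replicate 1, where heat shock genes had 8 and 5.

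**Figure D5:**
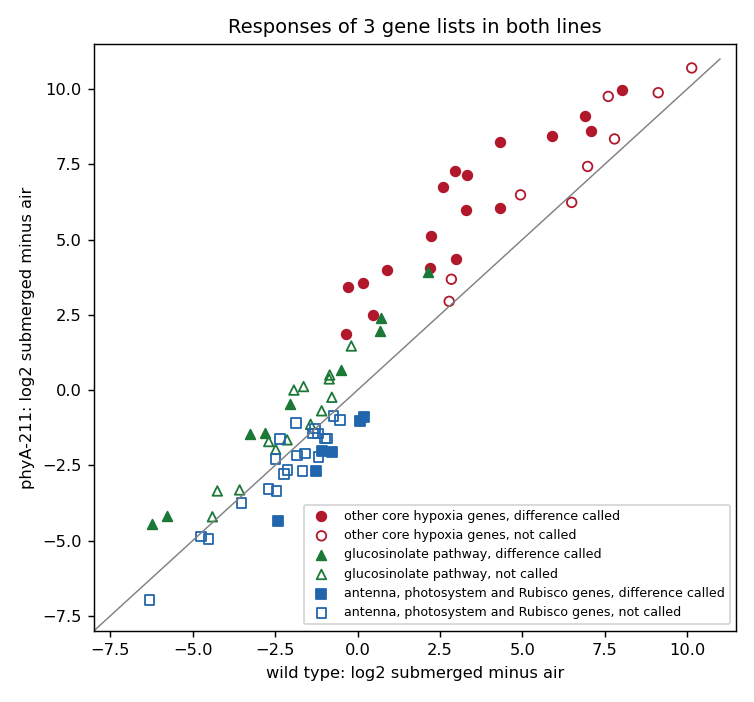
Response to submergence of the genes of 3 lists, in phyA-211 (y axis) and wild type (x axis), each as mean log2(TPM + 1) submerged minus air. Filled symbols mark genes whose difference of response was called and the grey line marks equal responses; 18 of 27 core hypoxia genes are filled and lie above it, and 6 of 28 antenna, photosystem and Rubisco genes are filled and lie below it.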

How the data were processed

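Gene expression was measured by RNA sequencing of leaf poly(A) RNA, selected with oligo(dT) beads and primed with random primers, per the labels' protocols. The deposited TPM values were made by the authors, and the unit was inferred from the values, since each library totals between 996105 and 998620. The submitters' processing notes name the build TAIR10 and the tools HISAT2, fastp, cutadapt and DESeq2, without versions or order. Read depth per library and whether counting used strand are not given in the sources used here. The precision at low TPM is therefore unknown, and overlapping antisense genes cannot be told apart. Of the genes in the table, 880 had values identical to those of another gene, and 285 did not match the reference used for gene types and transcript lengths.

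Samples were grouped by the line and condition in their labels. Values were tested as log2(TPM + 1) with limma 3.58.1 (trend and robust moderation, two-sided, Benjamini-Hochberg over all genes tested, threshold 0.05) in R 4.3.3, with tables and plots made in Python 3.11.15, pandas 2.3.3, numpy 2.4.6 and matplotlib 3.10.9. Every adjusted p printed is from limma. The response to submergence was fitted on the 6 phyA-211 libraries, and the difference of response on 12 libraries, for genes of at least 1 TPM in at least 3 of them. An exact test of 3 against 3 libraries cannot go below p = 0.1. The procedure was run on simulated data with noise drawn separately for each gene and library. These held no trend with transcript length, so the run cannot show how the procedure behaves under such a trend. Members, 35 gene lists and naming rules were chosen with earlier results of these data known. Genes named were 12 key genes, the 10 largest rises and falls among genes with a symbol in the deposited table, the 3 largest and the smallest called changes of each pathway list, the 10 widest and narrowest spreads, the 5 largest differences of response each way, and any marker.

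Replicate numbers are shared between the labels of both conditions. Deviations of same-numbered submerged and air libraries correlated at 0.48, 0.23 and 0.12 across genes, which met the minimum of 0.1 set for pairing, and a replicate block was run as an alternative. With the length trend removed the same correlations were 0.25, 0.12 and 0.02, so the third pair no longer met it. Submerged replicate 3 correlated more with air replicate 2, at 0.41. Other alternatives were another pseudocount, filters, scalings, weights, all 18 libraries, each library left out and, chosen after seeing the data, removal of the trend of log2 values with transcript length (lowess span 0.3).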

Additional observations from a re-analysis of the deposited data

Results flagged for a closer look

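Among nuclear protein-coding genes with a symbol in the deposited table and a mean of at least 5 TPM, the 10 genes below had the most positive and most negative called differences of response, phyA-211 minus wild type, in log2. Gene types were taken from the reference annotation, and this filter kept AT7SL-1, although it is named for an RNA that codes for no protein. Genes without a symbol were not ranked, and of these AT4G24110 and AT3G10040, core hypoxia genes, differed by 4.33 and 4.16 (adjusted p = 0.000265 and 0.000493). Each difference was tested as an interaction in limma, and the range of adjusted p over the alternatives is given with it.

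NUDT21, a Nudix hydrolase gene, had 229, 260 and 233 TPM in submerged and 14.3, 13.1 and 19.0 TPM in air phyA-211, while submerged wild type had 27.3 to 28.1 TPM and wild type air 35.8 to 70.2 TPM. Its difference was 4.81 (SE 0.31, adjusted p = 5.01e-05, between 2.18e-07 and 0.000608). RHL41, a zinc finger gene, differed by 4.36 (SE 0.47, adjusted p = 0.0007, between 2.59e-05 and 0.00518). It had 187 to 238 TPM in submerged phyA-211 and 52.4 to 60.3 TPM in submerged wild type. In air it had 4.45 to 9.84 TPM in phyA-211 and 24.3 to 69.2 TPM in wild type, so the lines differed in both conditions. LBD41 differed by 3.93 (adjusted p = 0.00348, between 0.000669 and 0.0162). PMT6, which encodes a sugar alcohol transporter, had 40.1, 147 and 174 TPM in submerged and 0, 2.03 and 0 TPM in air phyA-211, while submerged wild type had 59.4 to 63.0 TPM and wild type air 20.4 to 25.5 TPM (difference 4.76, adjusted p = 0.00564, between 7.27e-05 and 0.0218). All 3 phyA-211 submerged libraries of these 4 genes were above their air libraries.

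ATL6, a RING finger gene, differed by 5.68 (SE 1.28, adjusted p = 0.0259, between 0.00239 and 0.0963, and 0.0714 with the replicate block), and its submerged phyA-211 values were low in 2 of 3 libraries. It had 1.28, 3.76 and 39.3 TPM in submerged and 5.19, 0.44 and 0 TPM in air phyA-211, with overlap, while it was listed at 0 in all 3 submerged wild-type libraries and had 8.53 to 16.4 TPM in wild type air.

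LTP3, a lipid transfer protein gene, differed by -3.65 (SE 0.48, adjusted p = 0.00244, between 0.000243 and 0.0266), with 2.17, 1.86 and 0.94 TPM in submerged and 130, 51.3 and 105 TPM in air phyA-211. NUDT24 differed by -3.62 (adjusted p = 0.000107, between 8.83e-06 and 0.0177), LSU1, a sulfur starvation gene, by -3.17 (adjusted p = 0.01, between 7.49e-05 and 0.0368) and GER3 by -3.14 (adjusted p = 0.00407, between 0.000501 and 0.0178). In air, LTP3, NUDT24 and LSU1 were higher in each phyA-211 library than in any wild-type library. AT7SL-1 differed by -4.42 (SE 0.9, adjusted p = 0.0176, between 0.000213 and 0.0538), with 1.1 to 3.17 TPM in wild type air and 37.7 to 76.5 TPM in phyA-211 air.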

How the results depend on the processing

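Of the values of named genes under the alternatives, 2968 kept their direction and side of the threshold, 157 lost the call, 40 gained it and 18 changed sign, none of which was called before or after. For submergence these were TIC, at -0.16 with the length trend removed, with or without the block, and -0.14 to 1.2 with 1 library left out; ATMRK1, at -0.08 to 1.32; and AT7SL-1, at -1.25 to 0.39. For the difference of response, EIL1 had -0.32 after centring, -0.02 after quantile normalization and -0.48 with the length trend removed, with or without the block, and CAT2 had -0.47, -0.18 and -0.70 under these and -0.30 to 0.53 with 1 library left out. The genes higher in submerged phyA-211 numbered 3275, against 5419 with all 18 libraries in the fit and 4924 with the length trend and submerged replicate 1 both removed. With 1 library left out they ranged from 1980 to 5721, and those lower from 2096 to 3529 around 3171. The median SD of the submerged replicates, 0.37, was 0.24 with the length trend removed and 0.16 to 0.45 with 1 library left out. The more positive differences of response, 1452, became 874 without a filter, 596 after median centring, 735 after quantile normalization, 4317 with all 18 libraries, 3249 with group weights and 294 to 8096 with 1 library left out. The more negative ones, 439, became 1066, 790 and 895 after centring, quantile normalization and with all 18 libraries, 845 with the length trend removed and 108 to 1920 with 1 library left out. The replicate block gave 5246 and 1160 differences, and 1059 negative ones with the length trend removed too; for submergence it gave 4608 higher and 3933 lower, 2 named genes lost the call and 3 gained it. The cause of these changes was not tested. Without read counts, the depth behind low values is unknown.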
